A study of Mus musculus with 12 samples.

Results

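Cxcl12, its receptors Cxcr4 and Ackr3, and the chemokine genes Cxcl1, Cxcl5, Cxcl14, Cxcl16, Cx3cl1, Ccl2 and Ccl7 were followed through muscle tissues grown from C2C12, a long-established mouse myoblast line. These 10 of the 78298 genes in the deposited tables were found by gene name. They were chosen by their measured levels in these libraries and by the difference between the cell lines compared here, so for them that difference is a description, and no p-value is given for it. WT libraries, 6 in number, came from wild-type C2C12 cells, and RGECO libraries, also 6, came from a C2C12 line with a genetically encoded calcium indicator, a fluorescent reporter of calcium. Every tissue of both lines lay on methacrylated gelatin and was taken for RNA on day 14 of differentiation, after culture with aminocaproic acid (1 mg/ml), IGF-1 (50 ng/ml) and inactivated horse serum (10%). The labels give neither the promoter of the indicator nor whether the RGECO line is 1 clone.

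Chemokines are small secreted proteins that direct cell migration through receptors with G protein coupling. CXCL12 is held on heparan sulfate in the matrix and acts through CXCR4, while ACKR3, an atypical receptor, binds CXCL12 and takes it into the cell without the usual G protein signal. In mouse muscle, CXCL12 and CXCR4 are known for guiding migrating muscle precursors, and injured muscle makes neutrophil and monocyte attractants of the CXC and CC families.

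Proximal promoters show the regulatory sequence of the ligands whose levels stood fully apart between the lines and of the receptor with the higher RGECO mean. The RefSeq promoters (GRCm38.p6, 250 bases before to 50 after the annotated start) were matched by symbol for 6 of the 10 genes, namely Cxcl12, Cxcr4, Ackr3, Cxcl1, Cxcl14 and Cx3cl1. The sequences run 5′ to 3′ on the strand of the gene, and capitals mark matches to the motifs searched on both strands: TATAAA, the GC box GGGCGG, the NF-kB core GGANTTTCC, the hypoxia response core ACGTG and the AP-1 site TGANTCA. The windows were chr6:117168285-117168584 (+) for Cxcl12, chr5:90890995-90891294 (+) for Cxcl1, chr8:94771930-94772229 (+) for Cx3cl1 and chr1:90203730-90204029 (+) for Ackr3.
Cxcl12: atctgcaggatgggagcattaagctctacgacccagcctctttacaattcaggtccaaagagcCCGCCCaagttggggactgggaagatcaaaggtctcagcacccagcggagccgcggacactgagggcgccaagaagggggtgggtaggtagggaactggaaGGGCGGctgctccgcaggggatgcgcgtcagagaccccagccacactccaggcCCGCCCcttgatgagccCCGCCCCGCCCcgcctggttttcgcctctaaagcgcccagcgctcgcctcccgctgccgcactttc
Cxcl1: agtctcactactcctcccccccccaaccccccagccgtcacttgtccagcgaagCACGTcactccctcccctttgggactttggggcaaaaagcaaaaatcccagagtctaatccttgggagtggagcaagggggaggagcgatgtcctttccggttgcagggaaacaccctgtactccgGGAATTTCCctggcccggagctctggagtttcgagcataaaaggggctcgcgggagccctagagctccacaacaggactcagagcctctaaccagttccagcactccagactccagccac
Cx3cl1: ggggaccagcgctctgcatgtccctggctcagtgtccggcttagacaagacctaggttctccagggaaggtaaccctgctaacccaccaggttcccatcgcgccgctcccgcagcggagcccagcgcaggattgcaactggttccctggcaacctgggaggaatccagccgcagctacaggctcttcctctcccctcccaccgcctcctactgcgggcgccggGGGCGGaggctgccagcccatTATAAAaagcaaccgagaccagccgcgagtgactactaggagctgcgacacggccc
Ackr3: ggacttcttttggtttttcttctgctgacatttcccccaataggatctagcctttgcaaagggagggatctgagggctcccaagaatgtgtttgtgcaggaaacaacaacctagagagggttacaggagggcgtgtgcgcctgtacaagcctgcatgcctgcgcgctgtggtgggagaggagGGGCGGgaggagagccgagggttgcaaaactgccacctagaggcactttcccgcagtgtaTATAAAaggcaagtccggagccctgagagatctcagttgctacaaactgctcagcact
Cxcl12 had 5 GC box matches, the last a pair that overlaps by 1 base, and no match to the other motifs. Cxcl1 had 1 match to the NF-kB core, first base 70 before the start, and 1 to the hypoxia response core on the reverse strand. Both Cx3cl1 and Ackr3 had 1 TATAAA and 1 GC box match, and Cxcr4 (sequence not shown) had 3 GC boxes and a TATAAA that matched on both strands with overlap. Cxcl14 (sequence not shown) had 3 GC box matches and no match to the other motifs. Of all 32851 promoters of this length, 35.7% held the GC box, 13.6% TATAAA, 1.25% the NF-kB core, 19.6% the hypoxia response core and 7.81% the AP-1 site. A match is a run of letters and was not tested as a binding site.

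The tables hold estimated counts per gene and TPM, transcripts per 1000000 transcripts, a scale per length. CPM means counts per 1000000 counts of a library after TMM scaling, and is used to compare libraries for 1 gene, while TPM is used to set genes side by side. The WT libraries held 9370322 to 11744314 counts and 5 of the RGECO libraries 5881622 to 11926220, the fewest in RGECO replicate 5. With 825 counts, RGECO replicate 4 was near empty and enters no value unless named. A floor of 3 counts equals 0.252 to 0.510 CPM per library before TMM scaling, for counting error only. Whether the replicates were separate cultures is not in the labels, so spreads and p-values refer to these samples and may be technical. As a check of the tissue label, all 8 myotube markers were tested, with Acta1, skeletal actin, at a mean of 7392 TPM in WT and 9486 TPM in RGECO. The macrophage markers Adgre1, C1qa, C1qb and Tyrobp, the lymphocyte markers Cd4, Cd8a and Ms4a1 and the endothelial markers Tie1 and Emcn were at 0 counts in all 11 libraries. Other genes of the same lists had counts, among them the endothelial genes Vwf (142 counts over the WT and 67 over the RGECO libraries), Cdh5 (24 in each line) and Pecam1 (9, all in RGECO). The lymphocyte genes Cd3e and Cd3d had 3 each, all in RGECO, and the neutrophil gene S100a8 had 16 and 4. Macrophage genes with counts included Cd68 (1207 and 874), Lyz2 (37 and 33), Itgam (35 and 21), Mrc1 (27 and 17) and Csf1r (10 and 6).

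Cxcl12 (ENSMUSG00000061353) had the highest mean TPM of the 10 genes in WT tissue, and in RGECO tissue it lay below 4 of them. In WT its level was 50.3 CPM in the lowest library, 55.9 at the median and 57.4 in the highest. In RGECO it was 8.58 CPM in replicate 1, 10.9 in replicate 2, 7.20 in replicate 3, 16.5 in replicate 5 and 5.93 in replicate 6. The lines did not overlap, and RGECO replicate 5, the highest of its line, lay well below the lowest WT library. The means were 55.1 ± 2.58 CPM (SD, n = 6) and 9.82 ± 4.14 CPM (SD, n = 5), so the RGECO mean was 17.8% of the WT mean. On the log2 scale RGECO differed from WT by -2.52 ± 0.21 (SE; 95% interval -2.96 to -2.07). WT libraries lay close together, with a coefficient of variation of 4.67%, while that of the RGECO libraries was 42.2%. These levels rested on 489 to 613 counts per WT library and 64 to 111 per RGECO library. In bulk RNA, fewer cells that make a transcript and less of it per cell cannot be told apart.

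The receptors of CXCL12 differed less between the lines. Ackr3 (ENSMUSG00000044337), the scavenging receptor, had 48.8 CPM in the lowest WT library, 53.1 at the median and 58.1 in the highest. Its RGECO levels were 68.0, 71.4, 83.5, 55.5 and 79.2 CPM in replicates 1, 2, 3, 5 and 6. Of these libraries 4 lay above every WT library, and replicate 5, the one with the fewest counts, lay inside the WT range. The log2 fold change was 0.42 ± 0.12 (SE; 95% interval 0.17 to 0.66), with a WT mean of 53.5 ± 3.68 CPM (SD, n = 6) and an RGECO mean of 71.5 ± 10.8 CPM (SD, n = 5).

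Cxcr4 (ENSMUSG00000045382), the signalling receptor, had 10.2 CPM in the lowest WT library, 12.2 at the median and 19.7 in the highest. Its RGECO levels were 7.91, 11.4, 9.51, 10.5 and 5.93 CPM in replicates 1, 2, 3, 5 and 6. The ranges overlapped: RGECO replicates 2 and 5 lay inside the WT range and the other 3 below it. On the log2 scale the difference was -0.58 ± 0.22 (SE; 95% interval -1.04 to -0.12). Set side by side in each library, the TPM of Ackr3 was 2.13 ± 0.70 times that of Cxcr4 in WT (SD, n = 6) and 3.88 ± 1.11 times in RGECO (SD, n = 5), and these ratios overlapped between the lines (1.36 to 3.21 against 2.44 to 5.10).

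The ligand and its receptors thus stood in another proportion in each line. In WT the TPM of Cxcl12 was 1.37 ± 0.14 times that of Ackr3 (SD, n = 6) and 2.86 ± 0.74 times that of Cxcr4. In RGECO the same ratios were 0.213 ± 0.12 and 0.740 ± 0.24 (SD, n = 5). Neither ratio overlapped between the lines: the lowest WT values were 1.20 and 1.94 and the highest RGECO values 0.415 and 1.015.

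**Figure D1:**
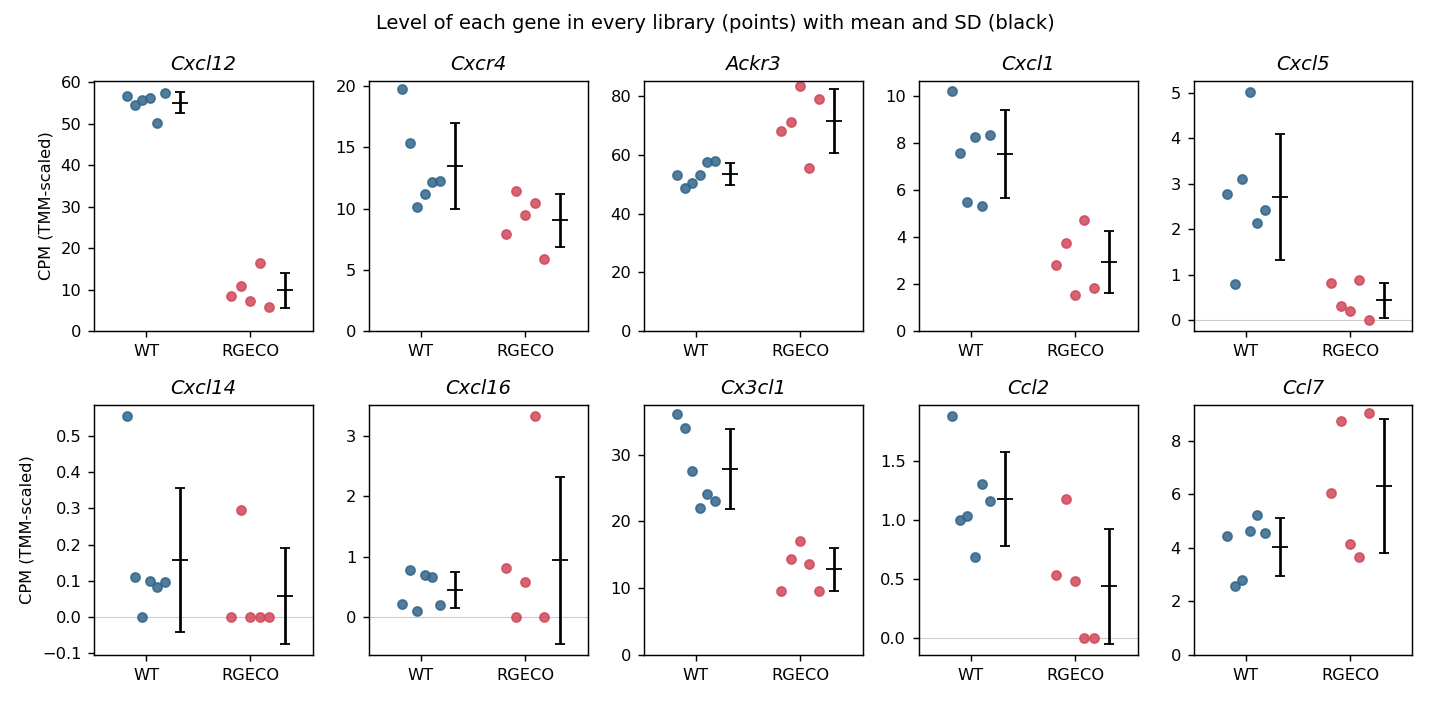
CPM (TMM-scaled) of each of the 10 genes in every library, with WT in blue and RGECO in red, and black bars for the mean and SD of 6 WT and 5 RGECO libraries (a bar can reach below 0 where the SD exceeds the mean). Points of the lines do not overlap for Cxcl12, Cxcl1 and Cx3cl1, and 4 of 5 RGECO points lie above all WT points for Ackr3.

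Among the ligands of other receptors, Cx3cl1 (ENSMUSG00000031778), a chemokine made on a membrane stalk and shed by proteases, was lower in all RGECO libraries. Its WT levels were 22.03 CPM in the lowest library, 25.8 at the median and 36.1 in the highest. Its RGECO levels were 9.52, 14.4, 17.0, 13.7 and 9.61 CPM in replicates 1, 2, 3, 5 and 6. The ranges did not overlap in CPM, nor in TPM (9.24 to 15.8 in WT and 4.27 to 8.25 in RGECO). Its log2 fold change was -1.11 ± 0.19 (SE; 95% interval -1.53 to -0.70). Within RGECO the order of the libraries depended on the scale: replicate 3 was highest in CPM, and replicate 6 was highest in TPM.

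Cxcl1 (ENSMUSG00000029380) and Cxcl5 (ENSMUSG00000029371) attract neutrophils through CXCR2 and lie in 1 cluster of chemokine genes on mouse chromosome 5. Cxcl1 had 5.33 CPM in the lowest WT library, 7.92 at the median and 10.2 in the highest, against 2.82, 3.74, 1.54, 4.73 and 1.84 CPM in RGECO replicates 1, 2, 3, 5 and 6. All 5 RGECO libraries were below all WT libraries, with replicate 5 nearest to them. The log2 fold change of Cxcl1 was -1.39 ± 0.31 (SE; 95% interval -2.04 to -0.74).

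Cxcl5 was scarcer and more variable, with 7 to 51 counts per WT library and 0 to 6 per RGECO library. Its WT levels were 0.781 CPM in the lowest library, 2.60 at the median and 5.02 in the highest, against 0.805, 0.295, 0.192, 0.875 and 0 CPM in RGECO replicates 1, 2, 3, 5 and 6. The ranges overlapped through WT replicate 2 alone, which lay below RGECO replicates 1 and 5. The log2 fold change was -2.78 ± 0.66 (SE; 95% interval -4.19 to -1.36), the lowest of the 8 genes tested and the one with the widest interval but for Ccl2. Cxcl5 passed the filter on low counts through WT, and its RGECO levels lay near the floor. The size of its fold change and its rank thus carry little weight.

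Ccl2 (ENSMUSG00000035385) and Ccl7 (ENSMUSG00000035373), monocyte attractants that act through CCR2, are neighbours on mouse chromosome 11. Ccl7 had 2.56 CPM in the lowest WT library, 4.50 at the median and 5.25 in the highest, against 6.04, 8.75, 4.13, 3.68 and 9.03 CPM in RGECO replicates 1, 2, 3, 5 and 6. RGECO replicates 1, 2 and 6 lay above all WT libraries and the other RGECO libraries inside their range. The log2 fold change of Ccl7 was 0.65 ± 0.29 (SE; 95% interval 0.03 to 1.27).

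Ccl2 was near the floor in both lines, with 7 to 17 counts per WT library and 4, 12, 5, 0 and 0 in RGECO replicates 1, 2, 3, 5 and 6. Its WT levels were 0.689 CPM in the lowest library, 1.10 at the median and 1.88 in the highest, and RGECO replicate 2 lay inside that range at 1.18 CPM. The log2 fold change was -1.35 ± 0.69 (SE; 95% interval -2.82 to 0.11), and the interval includes 0. The estimates for these neighbours thus had opposite signs, and the difference between them was not tested.

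Cxcl16 (ENSMUSG00000018920), a transmembrane chemokine for CXCR6, and Cxcl14 (ENSMUSG00000021508), a chemokine made by many healthy tissues, did not pass the filter on low counts, so no fold change is given. Cxcl16 had 27 counts over the 6 WT libraries, and 6, 0, 6, 19 and 0 in RGECO replicates 1, 2, 3, 5 and 6. RGECO replicate 5 thus held most of the RGECO reads, at 3.33 CPM, against 0.104 to 0.781 CPM in WT. Cxcl14 had 9 counts over the 6 WT libraries, 5 of them in replicate 1, and 3 counts in RGECO, all in replicate 2.

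The quasi-likelihood test of edgeR was adjusted by Benjamini-Hochberg over 13318 genes, and all adjusted p-values below named edgeR are from it. Of the 8 genes tested, 4 were called lower in RGECO (Cxcl12, Cxcl1, Cxcl5 and Cx3cl1) and 1 higher (Ackr3) at an adjusted p of 0.05. Cxcr4, Ccl2 and Ccl7 were not called. Of all genes tested 8.35% were called, 4.93% lower and 3.42% higher. The CPM ranges of the lines did not overlap for 3 of the genes described (Cxcl12, Cxcl1 and Cx3cl1) and for 7.97% of all genes tested. Because the genes were selected on this comparison, their calls are no independent test and nothing is read from these counts. Their median log2 fold change was -1.23 beside -0.01 over all genes tested. Ackr3 lost its call when any of 7 libraries was left out, namely WT replicates 1, 3 and 4 and RGECO replicates 1, 2, 3 and 6. It also lost it with limma on TPM, without the filter, with all 12 libraries and with the replicate number as a block. In total 13 of 21 alternatives ended it. Cxcl5 lost its call without RGECO replicate 2 or 3, and it did not pass the filter without WT replicate 1, 3, 4, 5 or 6.

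**Figure D2:**
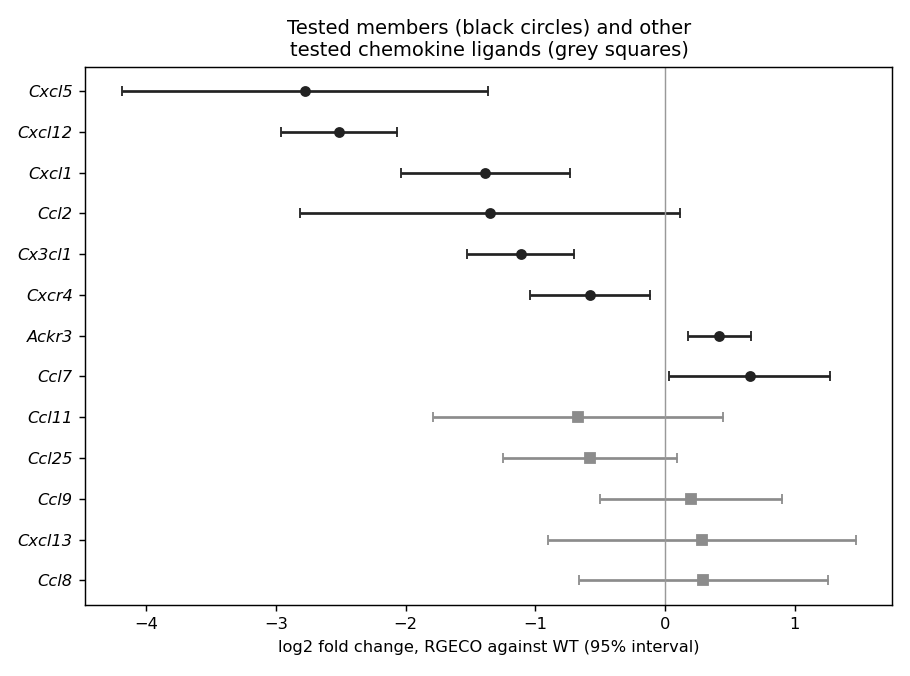
Log2 fold change of RGECO against WT with its 95% interval for the 8 genes described that passed the filter on low counts (black circles) and for the 5 other chemokine ligands that passed it (grey squares). Cxcl5 and Cxcl12 lie farthest to the left, and the interval of Ccl2 and those of all 5 other ligands cross 0. Cxcl5 passed the filter through WT, with RGECO levels near the floor.

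Levels per length were ordered differently in each line. In WT, Cxcl12 led at 30.9 ± 4.20 TPM (SD, n = 6), followed by Ackr3 at 22.9 ± 4.50, Cx3cl1 at 12.7 ± 2.94, Cxcr4 at 11.2 ± 2.11, Cxcl1 at 11.1 ± 2.73 and Ccl7 at 7.78 ± 2.78 TPM. Cxcl5 and Ccl2 followed at 2.30 ± 1.18 and 2.17 ± 0.68 TPM, and Cxcl16 and Cxcl14 at 0.285 ± 0.18 and 0.130 ± 0.16 TPM. Neighbours in this order overlapped in range except Ackr3 over Cx3cl1 and Ccl2 over Cxcl16. Cxcl12 was nonetheless above Ackr3 within each of the 6 WT libraries. Of the genes tested, 72.1% had a lower mean WT level in TPM than Cxcl12.

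In RGECO, Ackr3 led at 31.5 ± 5.38 TPM (SD, n = 5), above all other genes of the set in each of the 5 libraries. Ccl7 followed at 13.0 ± 5.30 TPM, then Cxcr4 at 8.40 ± 1.42, Cx3cl1 at 6.46 ± 1.75, Cxcl12 at 6.20 ± 2.20 and Cxcl1 at 4.51 ± 1.91 TPM. Cxcl16, Ccl2, Cxcl5 and Cxcl14 ended the order at 1.05 ± 1.47, 0.903 ± 0.98, 0.363 ± 0.33 and 0.0452 ± 0.10 TPM. All neighbours below Ackr3 overlapped in range. Cxcl12 was thus below Ackr3, Ccl7, Cxcr4 and Cx3cl1 in mean level, with 29.4% of the tested genes below it.

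The summed TPM of the 8 ligands was 67.3 ± 7.40 in WT (SD, n = 6; 54.5 to 75.3) and 32.6 ± 6.32 in RGECO (SD, n = 5; 23.5 to 41.3), without overlap. Cxcl12 made up 46.0 ± 4.50% of the WT sum (39.3 to 52.8%) and 19.1 ± 6.18% of the RGECO sum (11.5 to 28.5%). Ccl7 made up 11.3 ± 3.18% in WT (6.94 to 15.4%) and 39.6 ± 12.5% in RGECO (21.1 to 54.9%), and was the largest share in RGECO replicates 1, 2, 3 and 6. In RGECO replicate 5 Cxcl12 was the largest share, Cxcl1 the next at 21.8%, and Cxcl16 reached 10.9%. The share of Cx3cl1 was 19.2 ± 5.69% in WT and 20.3 ± 6.31% in RGECO, with overlapping ranges, although its level was lower in every RGECO library. On estimated counts, which favour long transcripts, Cxcl12 made up 55.9% in WT and 28.2% in RGECO, and Cx3cl1 in place of Ccl7 had the largest mean RGECO share at 38.4%.

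**Figure D3:**
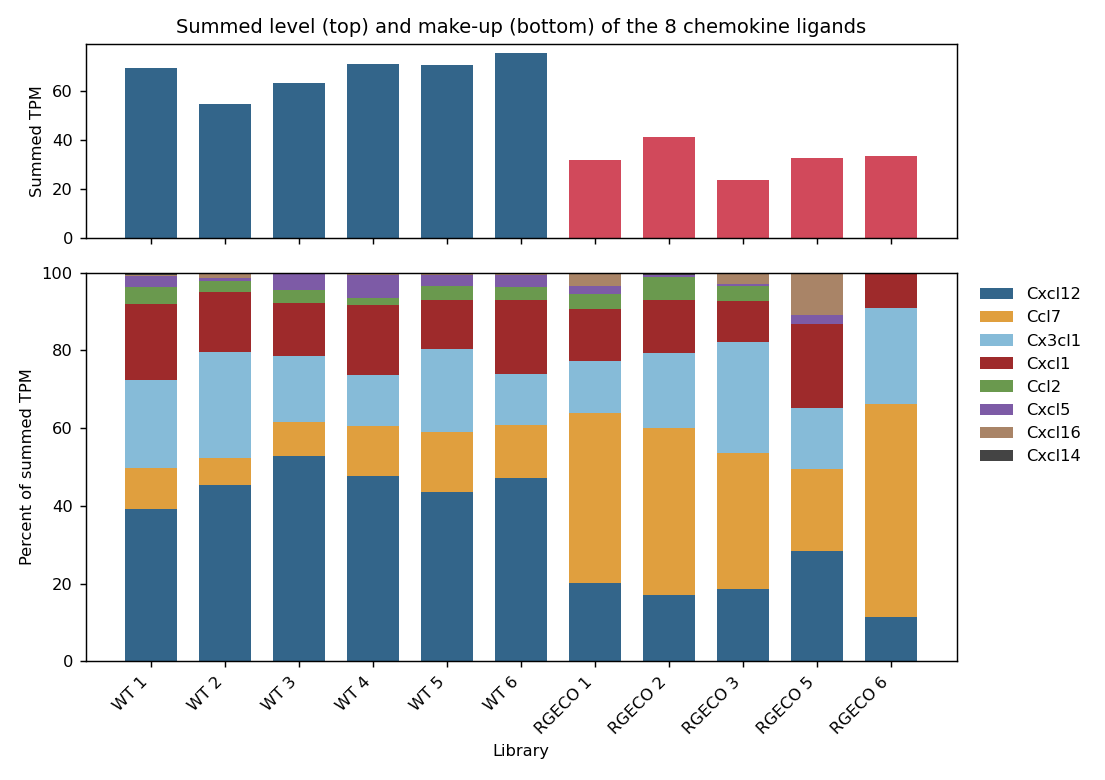
Summed TPM of the 8 chemokine ligands in each library (top, WT in blue and RGECO in red) and the percent of that sum from each ligand (bottom, colours as in the legend). WT bars reach 54.5 to 75.3 TPM with Cxcl12 as the largest share, and RGECO bars reach 23.5 to 41.3 TPM with Ccl7 as the largest share in 4 of 5 libraries.

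Variation within WT was examined for 4 pairs of genes, since it does not use the difference between the lines. Cxcl12 varied little there (coefficient of variation 4.67%), and Ccl2 rested on 7 to 17 counts per library. A relation in the pairs with these genes could thus be missed. Over the 6 WT libraries Pearson's r of log2 CPM was 0.23 for Ccl2 with Ccl7, 0.09 for Cxcl1 with Cxcl5, 0.15 for Cxcl12 with Cxcr4 and -0.20 for Cxcl12 with Ackr3. Spearman's rho was 0.20, 0.26, 0.26 and 0.37 in the same order. No pair passed a two-sided exact permutation test over the 6 libraries (p for r = 0.628, 0.897, 0.775 and 0.743, all 0.897 after Benjamini-Hochberg adjustment over the 4 pairs; p for rho = 0.714, 0.658, 0.658 and 0.497, all 0.714 after adjustment). Without the 2 libraries farthest from the median of the first gene, r was 0.97, 0.44, 0.20 and 0.95, so the value for Ccl2 with Ccl7 and the sign for Cxcl12 with Ackr3 rested on those libraries. With TPM in place of CPM, r of Cxcl12 with Ackr3 was 0.90 (exact permutation test, adjusted p = 0.0389). In TPM both genes were lowest in WT replicate 2 and highest in WT replicate 6 (24.7 and 35.5 for Cxcl12, 16.45 and 27.5 for Ackr3). CPM values in these libraries were 54.5 and 57.4 for Cxcl12 and 48.8 and 58.1 for Ackr3. The r in TPM thus depends on the scale and is not read as a relation between the genes.

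The genes whose log2 CPM followed Cxcl12 most closely over the 11 libraries, among 7750 genes of sufficient level, were Arpp21 (r = 0.98), a cyclic AMP-regulated phosphoprotein, Cap2 (0.98), an actin regulator of striated muscle, Cilp (0.98), a matrix protein, Smarca2 (0.97), a chromatin remodelling ATPase, and S1pr3 (0.97), a receptor for sphingosine-1-phosphate. Libraries of both lines enter these values, so the difference between the lines is part of them. After the mean of each line was subtracted, the closest were Pdia6 (0.92), a disulfide isomerase of the endoplasmic reticulum, Banf1 (0.92), a chromatin-binding protein of the nuclear envelope, Cilp (0.91), Coq10a (0.91), a coenzyme Q-binding protein, and Uimc1 (0.91), a ubiquitin-binding protein of DNA repair. Cilp was on both lists, at 93.1 CPM in WT and 23.8 CPM in RGECO. The 11 points share their libraries and scaling, and no p is given. Within its lines Cxcl12 ran from 50.3 to 57.4 CPM in WT and from 5.93 to 16.5 CPM in RGECO. The list after subtraction thus rests mostly on the RGECO libraries. Its genes are the top of 7750, and such values can arise by chance.

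Most other chemokine ligands and receptors were not detected or did not pass the filter on low counts. The gene lists here and below were chosen with earlier results of these data known, so their calls and p-values are no independent test. The 30 other chemokine ligands summed to a mean of 21.8 TPM in WT (17.4 to 28.3) and 22.2 TPM in RGECO (9.65 to 26.97), with overlap. Ccl8, a monocyte attractant, and Ccl25, known from the thymus and gut, were the highest of those tested, Ccl8 at 5.87 ± 2.64 TPM in WT (SD, n = 6) and 8.31 ± 3.82 TPM in RGECO (SD, n = 5) and Ccl25 at 5.97 ± 1.19 and 4.88 ± 2.12 TPM. Of these 30 ligands, 15 had no count in any of the 11 libraries, among them the neutrophil attractants Cxcl2 and Cxcl3, and 5 passed the filter on low counts. These 5 were Cxcl13, Ccl8, Ccl9, Ccl11 and Ccl25, with log2 fold changes from -0.67 ± 0.52 (SE) for Ccl11, a neighbour of Ccl2 and Ccl7, to 0.30 ± 0.45 (SE) for Ccl8 and a median of 0.20. By edgeR 0 of the 5 were called, as by DESeq2 and by limma on TPM, and 0 had an unadjusted p below 0.05.

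Of 21 chemokine receptors other than Cxcr4 and Ackr3, 13 had no count and 0 passed the filter. Cxcr2, the receptor for CXCL1 and CXCL5, had 0 counts in all libraries, as had Cxcr1 and also Ccr2, the receptor for CCL2 and CCL7. Cxcr6, the receptor for CXCL16, had 1 count in each line, and Cx3cr1, the receptor for CX3CL1, had 11 counts over the WT and 21 over the RGECO libraries. A count of 0 allows a level of up to 0.252 to 0.510 CPM per library before TMM scaling. Cxcl12 was thus the ligand in the set whose receptors were both measured above the filter.

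Of 37 genes of CXCR4 and ACKR3 signalling, 32 were tested, 4 rose and 1 fell in RGECO, and 27 did not pass (median log2 fold change 0.03). Over all genes tested 8.35% were called, the share to set beside this list and those that follow. Ptk2b, a calcium-responsive focal adhesion kinase, rose by 0.87 ± 0.13 on the log2 scale (SE, edgeR adjusted p = 0.000739), from 30.7 to 56.3 CPM. Rgs16, which shortens G protein signals, rose by 0.83 ± 0.24 (SE, edgeR adjusted p = 0.0450), and Rhoa, a switch of the actin skeleton, by 0.65 ± 0.15 (SE, edgeR adjusted p = 0.0155). Elmo1, which activates Rac in migrating cells, fell from a WT mean of 15.9 ± 3.52 CPM (SD, n = 6) to an RGECO mean of 5.62 ± 2.40 CPM (SD, n = 5; edgeR adjusted p = 0.00249). Ptk2b and Elmo1 kept their calls under all alternatives run. Rgs16 lost its call in 10 of 21 alternatives (adjusted p 0.0110 to 0.144), including those that left out RGECO replicate 1, 2, 3 or 5 or WT replicate 1, 4, 5 or 6, and Rhoa in 4 of 21 (adjusted p up to 0.803, with all 12 libraries, which adds the library of 825 counts).

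Of 23 genes that process or bind chemokines, 19 were tested, 1 rose and 3 fell (median 0.17). Mmp2, the gelatinase that cuts CXCL12, fell by 1.12 ± 0.15 on the log2 scale (SE, edgeR adjusted p = 0.000283), and Mmp14, which activates MMP2, by 0.52 ± 0.12 (SE, edgeR adjusted p = 0.0111). Sdc4, a heparan sulfate carrier at the cell surface, fell by 0.56 ± 0.08 (SE, edgeR adjusted p = 0.000721). Ext1, which builds heparan sulfate chains, rose by 0.64 ± 0.13 (SE, edgeR adjusted p = 0.00462). Dpp4, the peptidase that trims CXCL12, had 0 counts. Adam10 and Adam17, the proteases that shed CX3CL1 and CXCL16, had log2 fold changes of 0.49 ± 0.21 and 0.26 ± 0.13 (SE, edgeR adjusted p = 0.173 and 0.265) and were not called. Both were called higher with the Malat1 or the mitochondrial share as a covariate, and Adam10 also with the replicate block (adjusted p 0.000155 to 0.432 for Adam10 and 0.00977 to 0.723 for Adam17 over 21 alternatives). Mmp2 and Sdc4 lost their calls with all 12 libraries alone (adjusted p = 0.227 and 0.323, the highest of 21 alternatives), and Mmp14 and Ext1 lost theirs in 4 of 21, with TPM or all 12 libraries (adjusted p up to 0.280 and 0.429).

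Of 10 genes for other ligands and partners of CXCR4 and ACKR3, 8 were tested and 0 were called by edgeR or by limma on TPM, against 2 by DESeq2, with 4 at an unadjusted p below 0.05 by edgeR. Mif, a cytokine that also binds CXCR4, was at 396 CPM in WT and 323 in RGECO (log2 fold change -0.29 ± 0.22, SE, edgeR adjusted p = 0.488). Mif was called lower with the Malat1 share as a covariate (log2 fold change -0.49; adjusted p 0.00460 to 0.841 over 21 alternatives), and without WT replicate 2 its log2 fold change was -0.088. Adm, adrenomedullin, a peptide that ACKR3 also clears, was at 42.0 CPM in WT and 26.1 in RGECO (log2 fold change -0.68 ± 0.23, SE, edgeR adjusted p = 0.0923; 0.0182 to 0.427 over 21 alternatives).

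Regulators known to act on chemokine genes moved in both directions. Of 23 NF-kB and hypoxia genes, 22 were tested, 2 rose and 2 fell (median -0.19). Tnfaip3, a brake on NF-kB, rose by 0.69 ± 0.11 on the log2 scale (SE, edgeR adjusted p = 0.00101), and Ikbkg, the scaffold of the IkB kinase, by 0.65 ± 0.11 (SE, edgeR adjusted p = 0.00132). The NF-kB subunits Rela and Nfkb1 fell by 0.51 ± 0.14 and 0.42 ± 0.11 (SE, edgeR adjusted p = 0.0327 and 0.0255). Rela lost its call in 12 of 21 alternatives (adjusted p up to 0.596), among them leaving out WT replicate 1, 2, 3 or 5 or RGECO replicate 2, 5 or 6, and Nfkb1 in 10 of 21 (up to 0.513), among them leaving out WT replicate 3 or 5 or RGECO replicate 1 or 2. With all 12 libraries Tnfaip3 and Ikbkg lost theirs as well (adjusted p = 0.0835 and 0.142, the highest over the alternatives).

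Of 21 inflammatory cytokine and adhesion genes, 14 were tested, 1 rose and 2 fell (median -0.07). Il33, an alarm cytokine stored in the nucleus, rose by 1.13 ± 0.22 on the log2 scale (SE, edgeR adjusted p = 0.00386), from 68.9 to 151 CPM. Ptgs2, the inducible prostaglandin synthase, fell by 0.96 ± 0.14 (SE, edgeR adjusted p = 0.000447), from 119 to 61.2 CPM. Lcn2, an iron-binding protein of inflamed tissue, fell by 3.42 ± 0.67 (SE, edgeR adjusted p = 0.00435), from 1.27 to 0.0945 CPM, the latter under the floor of 3 counts. It rested on 75 counts over the WT and 5 over the RGECO libraries, and passed the filter through WT. Without WT replicate 1, 2, 3, 4 or 6, or with all 12 libraries, Lcn2 did not pass the filter, so its p-value carries little weight. With limma on TPM and no filter Il33 and Ptgs2 lost their calls (adjusted p = 0.0699 and 0.119, the highest over the alternatives).

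Among genes known from stromal cells rich in CXCL12, 10 of 13 were tested, 3 fell and 7 did not pass (median -0.25). Cdh11, a mesenchymal cadherin, fell by 3.70 ± 0.49 on the log2 scale (SE, edgeR adjusted p = 0.000219), from 5.92 to 0.408 CPM, and Pdgfrb, a receptor of pericytes and fibroblasts, by 1.59 ± 0.14 (SE, edgeR adjusted p = 1.03e-05), from 88.5 to 29.4 CPM. Cdh11 rested on 363 counts over the WT and 21 over the RGECO libraries, where it ran from 0 to 0.864 CPM, near the floor. It passed the filter on low counts through WT, so its fold change and p-value carry little weight. Foxc1, a transcription factor of such stromal cells in mouse bone marrow, fell by 0.94 ± 0.17 (SE, edgeR adjusted p = 0.00309). Together the 13 genes summed to 274 to 425 TPM in WT and 344 to 438 TPM in RGECO, with overlap. Most of this sum was Nes, at a mean of 218 TPM in WT and 300 TPM in RGECO (not called). The sum therefore does not describe the other genes of the list. With limma on TPM Foxc1 lost its call, as did Cdh11 where no filter was used (adjusted p up to 0.188 and 0.112 over the alternatives). Of 10 fibroblast markers 8 were tested, 4 fell and 1 rose (median -0.76), and their summed TPM was 1544 to 2668 in WT and 1147 to 1553 in RGECO. The part of stromal or fibroblast genes in the lower Cxcl12 was not tested. Summed TPM of the 10 macrophage markers was 21.1 to 31.5 in WT and 18.4 to 40.5 in RGECO, most of it Cd68, which had 20.4 CPM in both lines. Neutrophil and lymphocyte markers summed to 0 to 3.81 TPM in WT and 0 to 1.48 in RGECO, and endothelial markers to 0.506 to 3.55 and 0.616 to 1.66 TPM.

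Of 12 muscle stem cell and migration genes that work beside CXCR4, 11 were tested, 1 (Sdc4) fell and 10 did not pass (median 0.24). Pax7, the transcription factor of muscle stem cells, was at 24.2 CPM in WT and 33.3 in RGECO (log2 fold change 0.46 ± 0.16, SE, edgeR adjusted p = 0.0822). It was called higher in 3 of 21 alternatives, with DESeq2, with the mitochondrial covariate and without WT replicate 2 (adjusted p 0.0348 to 0.381 over all 21). Of the 8 myotube markers 1 rose and 1 fell (median 0.07), and their summed TPM overlapped between the lines (11406 to 13429 in WT and 12779 to 18307 in RGECO).

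**Figure D4:**
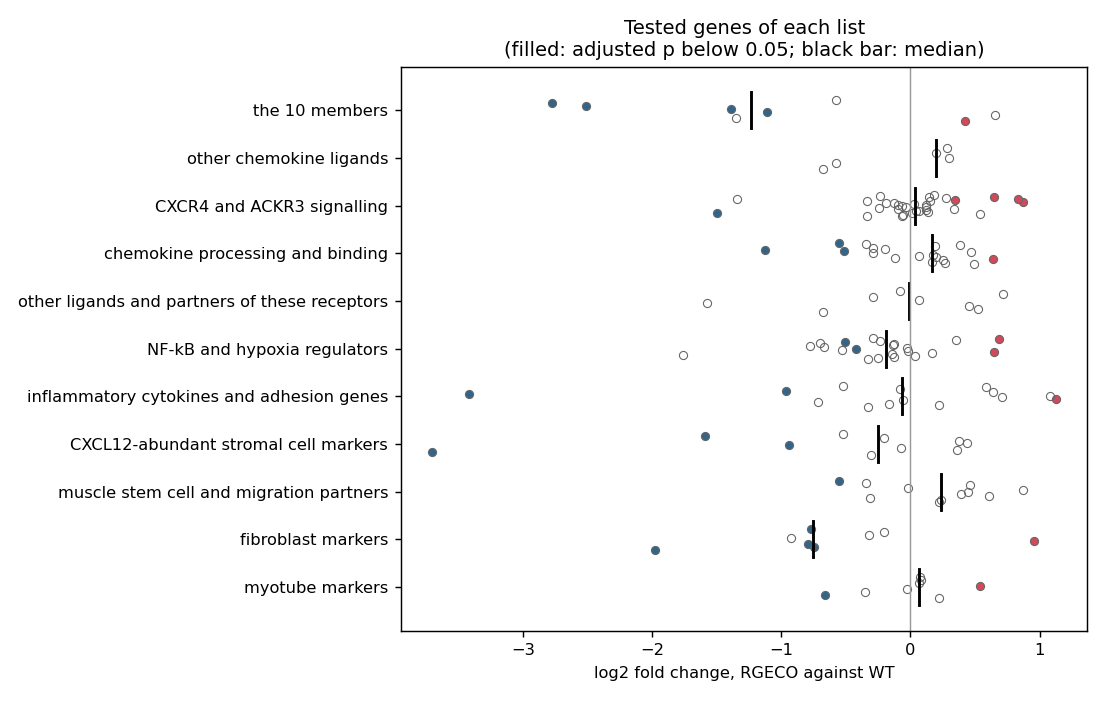
Log2 fold change of RGECO against WT for the tested genes of each list, 1 point per gene, filled where the edgeR adjusted p was below 0.05 (blue lower, red higher in RGECO), with a black bar at the median. The median of the genes described here is -1.23, that of the fibroblast markers -0.76, and those of the other 9 lists plotted lie between -0.25 and 0.24; lists with fewer than 2 tested genes are not plotted.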

How the data were processed

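Per the labels' protocols, poly(A) RNA was amplified in 14 PCR cycles and sequenced as 50-base read pairs. The authors deposited estimated counts per gene, not normalised, and TPM per gene, per the file headers; all 110 estimated counts of the genes described were whole within 0.01. Per the submitters' processing notes, Salmon, STAR, bedtools 2.25.0 and BWA 0.7.12-r1039 were used, with builds GRCm39, mm10 and hg19. What each did, like the annotation and the use of strand, is not given in the sources used here, and antisense reads cannot be told apart. No gene coordinates are given, and promoters come from RefSeq.

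The genes and gene lists were chosen with earlier results of these data known. Named list genes are up to 4 called genes of largest change per list and the partners of the genes described. Every count column matched a sample. The smallest chi-square per gene was 7.73 over 25 pairs of libraries within a line, so no pair was treated as 1 library.

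The estimated counts, rounded, went into edgeR 4.0.16 under R 4.3.3 (filterByExpr, TMM, robust quasi-likelihood F test, 6 WT against 5 RGECO libraries, Benjamini-Hochberg over 13318 genes, threshold 0.05). Libraries under 1000000 counts were left out. SE and 95% intervals come from the F statistic. The common coefficient of variation was 25.2%. The test was tested on simulated data for this comparison (13318 genes): it recovered 58% of genes changed 2-fold and 92% changed 4-fold, and 2.60% of calls were false. On the same simulated data 13.0% of DESeq2 calls were false, and 1.92% of limma calls on log2 CPM. Likeness used log2 CPM with a prior count of 2. Permutation tests were made in SciPy 1.17.1.

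Alternatives were median-of-ratios scaling, DESeq2 1.42.0, no filter, limma 3.58.1 on log2(TPM + 1) and log2(TPM + 0.1), all 12 libraries, the replicate number as a block, the Malat1 or mitochondrial share of counts as a covariate, and each library left out.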

Additional observations from a re-analysis of the deposited data

Results flagged for a closer look

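A sample far from the others of its group was sought in 68 groups of libraries (genes described or named, by line), and 4 stood out. Chance alone flags about 1 in 20 such groups. Cxcl14 in WT replicate 1 was at 0.554 CPM, while the other WT libraries were at 0 to 0.112 CPM. Cxcl14 in RGECO replicate 2 was at 0.295 CPM, while the other RGECO libraries were at 0. Cxcl16 in RGECO replicate 5, the library with the fewest counts, was at 3.33 CPM, while the others of its line were at 0 to 0.805 CPM. Ikbkg in WT replicate 6 was at 98.1 CPM, while the other WT libraries were at 78.8 to 82.7 CPM. The values of Cxcl14 rest on 5 and 3 counts and that of Cxcl16 on 19.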

How the results depend on the processing

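The log2 fold change was -2.76 to -2.19 for Cxcl12 and -1.60 to -1.17 for Cxcl1 over the alternatives, which use the libraries that chose these genes and are no independent support. Genes called higher, 456, came to 753 with DESeq2, 140 with log2(TPM + 1) without filter, 237 with all 12 libraries, 300 with the replicate block, 1395 with the Malat1 and 1614 with the mitochondrial covariate. Genes called lower, 656, came to 261, 257 and 118 with log2(TPM + 1), log2(TPM + 0.1) and log2(TPM + 1) without filter, and 1376 and 1519 with the covariates. Of the genes described, 1 was called higher, and 0 were without filter, with all 3 TPM settings, with all 12 libraries and with the replicate block, 2 (Ackr3 and Ccl7) with either covariate, and 0 to 1 with a library left out. Called lower were 4, and 2 with log2(TPM + 1) without filter, where Cx3cl1 and Cxcl5 lost their calls. With the replicate block Ackr3 and Cxcl5 lost theirs. Whether the numbers pair the libraries is not in the labels. Same-numbered libraries correlated at -0.15 to 0.36, and 1 of 5 RGECO libraries best with its own number. With so few pairs this cannot decide the question. Cxcr4 was called lower with either covariate. The share of Cxcl12 on estimated counts was 55.9% in WT and 28.2% in RGECO. Correlations reversed with TPM for Cxcl12 with Cxcr4 (-0.21) and with Ackr3 (0.90). With a library left out, r ran from -0.069 to 0.28 for Cxcl1 with Cxcl5, -0.19 to 0.24 for Cxcl12 with Cxcr4 and -0.62 to 0.94 for Cxcl12 with Ackr3. TPM moved the median log2 fold change of all genes by 0.11. Over the genes described, 135 alternative values kept their call or lack of one, 18 lost and 4 gained it; over named list genes 409, 55 and 13. The causes were not tested. Counts per library limit Cxcl5, Ccl2, Cxcl14 and Cxcl16.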
